A study of Mus musculus with 6 samples.

Results

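KIT and RET are receptor tyrosine kinases that lenvatinib inhibits, and the 10 genes described here are these receptors, their ligands and co-receptors, and markers of the interstitial cells of Cajal. They were taken by symbol from the deposited expression table: Kit and Kitl, Ano1 and Etv1, Ret, Gdnf and Nrtn, and Gfra1, Gfra2 and Gfra3. All 10 were among the 25339 genes of the table. The samples were RNA sequencing libraries of mouse colon, 3 labelled with the solvent DMSO and 3 with lenvatinib, an oral multikinase inhibitor. The labels give no strain, age, dose, time of treatment or genotype, and do not state whether colitis, the subject of the series title, had been induced. Whether the libraries came from separate animals is not stated beyond the word for biological replicate, so each p-value measures the spread between these libraries, which may be technical.

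KIT is the receptor for stem cell factor, the product of Kitl. Its signal keeps mast cells alive and maintains the interstitial cells of Cajal, the pacemaker and relay cells of gut muscle, and in mouse colon the receptor also marks secretory cells at the crypt base. RET is the signalling receptor for the ligands of the glial cell line-derived neurotrophic factor (GDNF) family. It is engaged together with membrane-anchored GFRα co-receptors, of which GFRα1 prefers GDNF, GFRα2 prefers neurturin and GFRα3 prefers artemin. This pathway builds the enteric nervous system, and its receptor stays on in adult enteric neurons.

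No member passed the test across all genes. Kit and Kitl had all 3 lenvatinib values below all 3 DMSO values, Gfra2 was lower and Gfra1 higher in the same sense, and the other 6 genes had overlapping groups. Groups did not overlap for 27.5% of all genes tested, and were lower in this sense for 17.5%. The receptor gene Ret itself differed by less than the spread between libraries.

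The promoters of Kit, Kitl and Gfra1 are shown because these are the 3 members with an unadjusted p below 0.05. Each line gives the 250 bases before the RefSeq start, 5′ to 3′ on the gene's own strand, in the GRCm38.p6 build of the sequence table. They lie at chr5:75574737-75574986 (plus strand) for Kit, at chr10:100015571-100015820 (plus strand) for Kitl and at chr19:58455399-58455648 (minus strand) for Gfra1. Capitals mark matches, on either strand, to the GC box GGGCGG, the TATA box TATAAA, the CCAAT box CCAAT, the E-box CACGTG, the ETS core CCGGAAG or the cyclic AMP element TGACGTCA.
Kit: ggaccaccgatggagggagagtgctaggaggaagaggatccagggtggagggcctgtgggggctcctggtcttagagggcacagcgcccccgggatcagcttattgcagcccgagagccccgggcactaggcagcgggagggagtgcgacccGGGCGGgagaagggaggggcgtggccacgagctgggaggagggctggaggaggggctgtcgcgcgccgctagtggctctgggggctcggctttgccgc
Kitl: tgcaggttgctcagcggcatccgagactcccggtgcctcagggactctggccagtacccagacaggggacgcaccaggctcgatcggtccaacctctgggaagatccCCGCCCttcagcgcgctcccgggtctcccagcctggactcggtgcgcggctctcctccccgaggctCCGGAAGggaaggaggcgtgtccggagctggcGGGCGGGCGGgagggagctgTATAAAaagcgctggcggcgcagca
Gfra1: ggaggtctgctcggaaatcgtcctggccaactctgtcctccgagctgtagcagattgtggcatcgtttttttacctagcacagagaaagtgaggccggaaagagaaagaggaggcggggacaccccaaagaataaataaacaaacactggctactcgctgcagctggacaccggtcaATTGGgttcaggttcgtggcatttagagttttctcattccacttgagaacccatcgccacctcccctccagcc

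The Kit window held 1 GC box, with its first base at position −98 from the start, and none of the other motifs. The Kitl window held a TATA box at −25, an ETS core at −77, and GC boxes at −143 (opposite strand), −45 and −41, of which the last 2 overlap. The Gfra1 window held 1 CCAAT box, on the opposite strand at −73, and no GC box. A GC box was present in 32.9% of 27025 RefSeq windows of the same length, a TATA box in 13.0%, a CCAAT box in 34.5% and an ETS core in 7.05%. The GC content was 70.8% for Kit, 69.2% for Kitl and 52.4% for Gfra1, against a median of 52.0% over all windows. RefSeq windows were matched for 7 of the 10 members. These matches describe the sequence and show no binding.

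Expression is given as FPKM, the number of fragments per kilobase of gene per 1000000 fragments. Levels of different genes therefore depend on the gene lengths used. For Etv1 the values imply a length of 13344 bases, against 7205 exonic bases in the GRCm38 annotation. For Gdnf they imply 4914 bases, against 3674. The values could be turned back into whole reads for nearly every gene, and the libraries held 37634680 to 39260883 reads in genes. The members rested on 49 to 3762 reads per library. The libraries themselves were not evenly spaced. Libraries 2 and 3 of each group were nearly alike, with a median absolute log2 ratio of 0.0569 to 0.0583 between them against 0.143 to 0.225 for the other 13 pairs of libraries. DMSO 1 alone expressed the Y-linked gene Ddx3y (6.54 FPKM, listed at 0 in the other 5 libraries). Xist, the transcript of the inactive X chromosome, was at 0.00147 FPKM there and at 15.9 to 19.8 FPKM in the other 5. DMSO 1 thus had the transcripts of a male and the other libraries those of females, and the labels give no sex. Epithelial and smooth muscle transcripts were abundant in all 6 libraries.

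**Figure D1:**
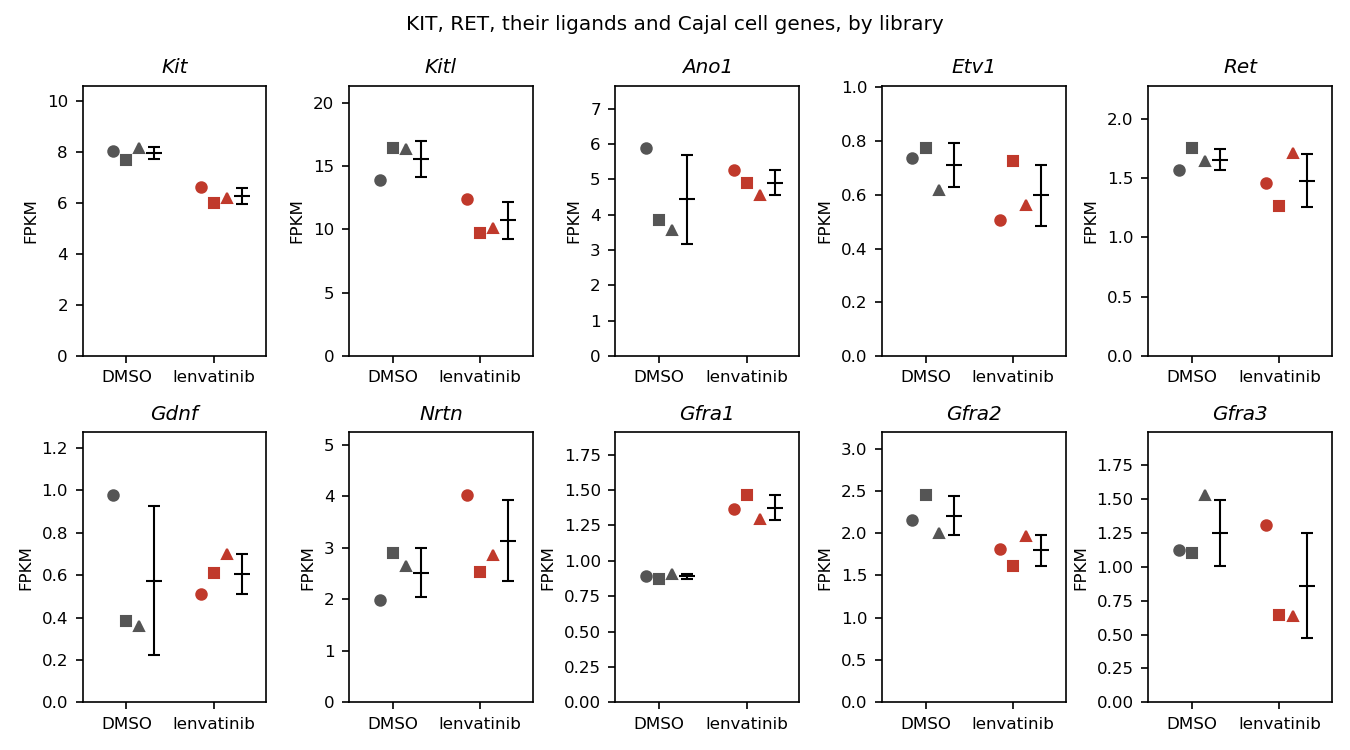
FPKM of each of the 10 genes (vertical axes, from 0) in the 3 DMSO and 3 lenvatinib libraries, with circles, squares and triangles for libraries 1, 2 and 3 and, beside them, the mean with bars of 1 SD. Kit, Kitl and Gfra2 are lower and Gfra1 is higher in all 3 lenvatinib libraries, and DMSO 1 stands above DMSO 2 and 3 for Ano1 and Gdnf. Of all genes tested, 27.5% have groups that do not overlap.

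In the DMSO libraries the order of mean levels ran from Kitl (15.6 FPKM) over Kit (7.96), Ano1 (4.43), Nrtn (2.52), Gfra2 (2.20), Ret (1.65), Gfra3 (1.25), Gfra1 (0.889) and Etv1 (0.711) to Gdnf (0.574). Neighbours in that order had separate ranges except Nrtn and Gfra2, and Etv1 and Gdnf. The place of Etv1 rests on the length implied for it. In DMSO it had 319 to 405 reads, against 183 to 191 for Gfra1. With lenvatinib the first 6 places were held by the same genes in the same order. Gfra1, at a mean of 1.38 FPKM, then stood above Gfra3 at 0.861, whose highest library (1.31) still lay within the Gfra1 range. In DMSO each Gfra3 value was above each Gfra1 value, and in lenvatinib they overlapped.

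Kitl, the KIT ligand, had the highest level of the 10 genes. It measured 13.9, 16.4 and 16.3 FPKM in libraries 1, 2 and 3 of DMSO and 12.4, 9.68 and 10.1 FPKM in those of lenvatinib. Lenvatinib 1 and DMSO 1 were the closest libraries of the 2 groups, which did not overlap. The mean was 15.6 ± 1.44 FPKM against 10.7 ± 1.45 FPKM (SD, n = 3 each), a difference of −31.0%. On the log2(FPKM + 1) scale the difference was −0.50 (SE 0.112, 95% interval −0.77 to −0.23), and it did not pass in limma with Benjamini-Hochberg adjustment over 11774 genes (adjusted p = 0.0913).

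Kit, the receptor gene, measured 8.04, 7.70 and 8.14 FPKM in the DMSO libraries and 6.63, 6.01 and 6.21 FPKM in the lenvatinib libraries. The DMSO values lay close together, and the highest lenvatinib value was below the lowest of them. These levels rested on 1581 to 1643 reads in DMSO and 1216 to 1315 reads in lenvatinib. The means were 7.96 ± 0.231 and 6.28 ± 0.316 FPKM (SD, n = 3 each), a difference of −21.1%. The log2 difference of −0.30 (SE 0.0645, 95% interval −0.46 to −0.14) did not pass in limma (adjusted p = 0.0830). For receptor and ligand alike, every lenvatinib value was the lower, and an exact permutation test over the 6 libraries gave a two-sided p = 0.1 for each, the smallest that 3 against 3 allows.

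Of the genes that mark interstitial cells of Cajal, Ano1 encodes the calcium-activated chloride channel that carries their pacemaker current. It measured 5.87, 3.86 and 3.57 FPKM in libraries 1, 2 and 3 of DMSO and 5.26, 4.90 and 4.55 FPKM in those of lenvatinib. DMSO 1 was the highest of all 6 libraries and DMSO 2 and 3 the lowest, so the lenvatinib libraries lay inside the DMSO range. The log2 difference was 0.14 (95% interval −0.25 to 0.54; limma adjusted p = 0.600). Without DMSO 1 it was 0.32 (adjusted p = 0.127). The percent difference of the means moved from 10.7% to 32.2% when that library was left out.

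Etv1, an ETS transcription factor that supports the KIT-positive state of these cells, was below the filter of a mean of 1 FPKM. It measured 0.739, 0.773 and 0.620 FPKM in DMSO and 0.508, 0.726 and 0.560 FPKM in lenvatinib, on 257 to 405 reads. Its place below the filter rests on the gene length implied by its values. The groups overlapped (exact permutation test, two-sided p = 0.2). With the filter lowered to 0.3 FPKM limma gave an adjusted p = 0.475. The difference of its means was −15.8%, in the direction of Kit, and differences between these genes were not tested.

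Ret measured 1.57, 1.75 and 1.64 FPKM in libraries 1, 2 and 3 of DMSO and 1.46, 1.26 and 1.71 FPKM in lenvatinib 1 to 3, on 362 to 509 reads. Lenvatinib 3 lay between the DMSO libraries and the other 2 below them. The log2 difference of −0.10 (95% interval −0.33 to 0.12; limma adjusted p = 0.513) did not pass, and its sign turned with quantile normalization (0.0030).

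Among the RET ligands, Gdnf encodes the ligand that guides and sustains enteric neurons. It measured 0.979, 0.384 and 0.359 FPKM in libraries 1, 2 and 3 of DMSO and 0.510, 0.610 and 0.700 FPKM in those of lenvatinib. DMSO 1, with 181 reads against 74 and 68 in DMSO 2 and 3, was the highest library, and those 2 were the lowest. Gdnf was below the filter of a mean of 1 FPKM (exact permutation test, two-sided p = 0.9). The difference of the means was 5.74%, and 63.4% without DMSO 1. On the log2 scale it was 0.05 with all libraries and ran from −0.04 without DMSO 3 to 0.23 without DMSO 1. Its direction therefore depended on the library left out.

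Nrtn encodes neurturin, the ligand preferred by GFRα2. It measured 2.00, 2.90 and 2.66 FPKM in DMSO and 4.03, 2.53 and 2.86 FPKM in lenvatinib. Lenvatinib 1 was the highest library and DMSO 1 the lowest, while libraries 2 and 3 of the groups overlapped. The log2 difference of 0.23 (95% interval −0.17 to 0.63) did not pass in limma (adjusted p = 0.419), and without lenvatinib 1 it was 0.08. This transcript rested on only 85 to 173 reads per library.

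The co-receptor gene Gfra1 measured 0.890, 0.872 and 0.906 FPKM in DMSO and 1.37, 1.47 and 1.29 FPKM in lenvatinib. Both groups were tight and far from each other, with 183 to 191 reads in DMSO and 271 to 310 in lenvatinib. The means were 0.889 ± 0.0170 and 1.38 ± 0.0873 FPKM (SD, n = 3 each), a difference of 54.6%, the largest percent difference of the 10 genes. The log2 difference was 0.33 (SE 0.0749, 95% interval 0.15 to 0.51; limma adjusted p = 0.0936). With a pseudocount of 0.1, which shrinks low genes less, it was 0.57 (adjusted p = 0.0998). Exons of an antisense gene, Gm16277, cover 9.0% of the exonic bases of Gfra1 in the GRCm38 annotation, and without a stated strand setting their reads cannot be told apart. No exon of the other 9 members overlapped an exon of another gene there.

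Gfra2, for the neurturin co-receptor, measured 2.16, 2.45 and 2.00 FPKM in DMSO and 1.81, 1.61 and 1.97 FPKM in lenvatinib. The groups did not overlap, but lenvatinib 3 (266 reads) and DMSO 3 (272 reads) nearly met. The log2 difference was −0.20 (95% interval −0.42 to 0.03; limma adjusted p = 0.262). Gfra3, for the artemin co-receptor, measured 1.12, 1.10 and 1.53 FPKM in DMSO and 1.31, 0.641 and 0.633 FPKM in lenvatinib. Lenvatinib 1 lay within the DMSO range, while lenvatinib 2 and 3, with 50 and 49 reads, lay below it. For 49 reads the exact Poisson 95% interval was 36.3 to 64.8 reads, or 0.469 to 0.837 FPKM, which covers counting error only. The log2 difference was −0.29 with all libraries (limma adjusted p = 0.326) and −0.45 without lenvatinib 1.

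**Figure D2:**
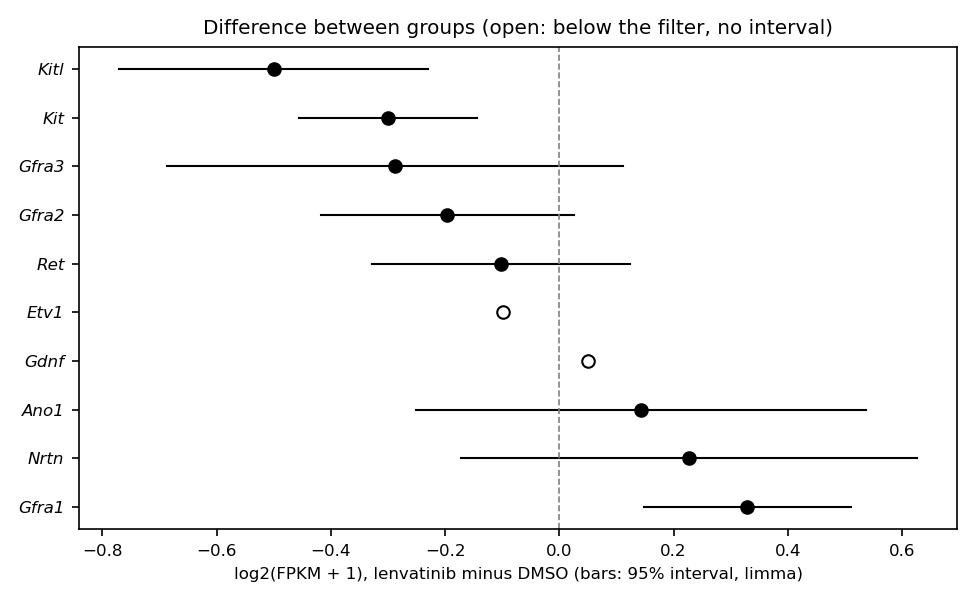
Difference on the log2(FPKM + 1) scale, lenvatinib minus DMSO (horizontal axis), for each of the 10 genes, with 95% intervals from limma for the 8 genes above the filter and open points for Etv1 and Gdnf below it. The intervals of Kitl and Kit lie below 0 and that of Gfra1 above 0, and the other 5 intervals include 0.

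Of the 10 members, 8 reached a mean of 1 FPKM over the 6 libraries and were tested. Gfra1 reached it only through lenvatinib (mean 1.38 FPKM, against 0.889 FPKM in DMSO). Gfra3 reached it only through DMSO (mean 1.25 FPKM, against 0.861 FPKM in lenvatinib). The counts that include these genes therefore depend on the filter. None of the 8 passed, where 2.03% of all 11774 genes tested did (0.934% lower, 1.10% higher). An unadjusted p below 0.05 was found for 3 of the 8 members, Kit, Kitl and Gfra1, and for 22.0% of all genes. Groups did not overlap for 4 of the 8 members, against 27.5% of all genes tested. Of these, 3 were lower (Kit, Kitl, Gfra2), against 17.5% of all genes, and 1 was higher (Gfra1), as were 1178 of the 11774 genes. The median log2 difference over the 8 tested members was −0.15, and over all 10 members −0.10, against −0.07 over all genes tested.

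Which library entered decided the calls. Without lenvatinib 1, Kit, Kitl and Gfra3 passed as lower and Gfra1 as higher (limma adjusted p = 0.00726, 0.00516, 0.0219 and 0.0168). In that fit 28.2% of all genes passed as lower and 9.85% as higher, and the 4 of 8 members are read against those shares. Leaving out any of the other 5 libraries gave no call. In particular, none of the 8 members passed without DMSO 1, where 2.29% of all genes did. With libraries 2 and 3 of each group averaged into 1 sample, an exact permutation test of 2 against 2 gave p = 0.333, the smallest it allows, for Kit, Kitl, Gfra1 and Gfra2 and also for Ret and Etv1, whose groups of 3 overlapped.

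**Figure D3:**
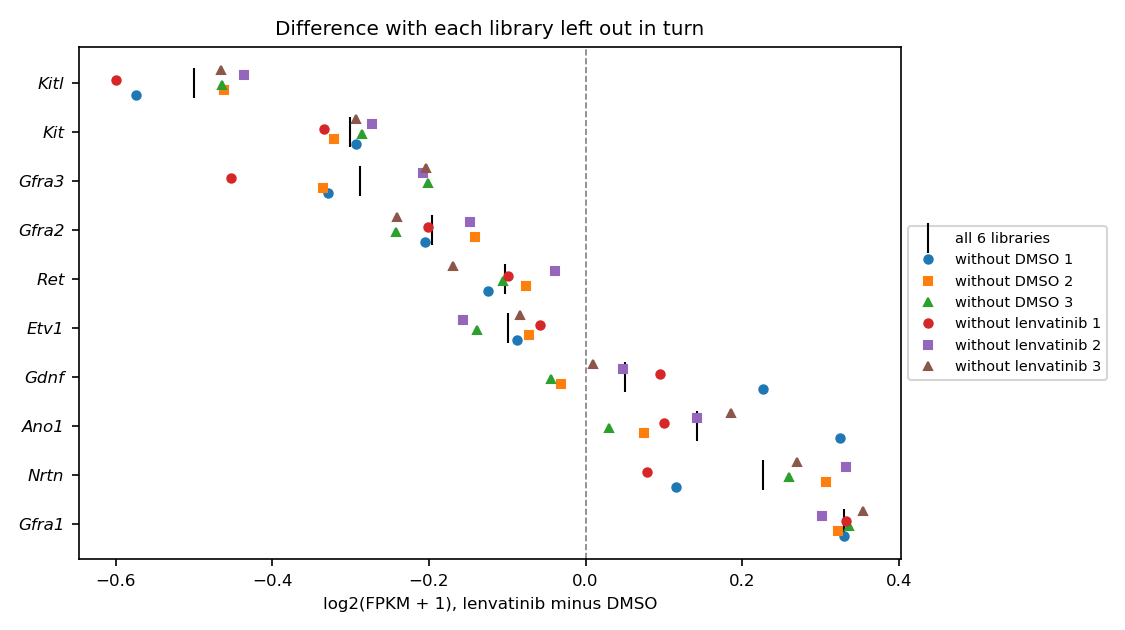
Difference on the log2(FPKM + 1) scale, lenvatinib minus DMSO (horizontal axis), for each of the 10 genes with all 6 libraries (black bar) and with each library left out (coloured symbols). All members but Gdnf keep their side of 0 in all 6 cases, and the Ano1 and Gdnf values are highest without DMSO 1.

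Cells that carry KIT were examined through their own markers, since in bulk tissue fewer cells of a type and less RNA per cell cannot be told apart. Mast cell transcripts were almost gone. All 6 tested mast cell genes fell, where 0.934% of all genes did. Each of the 6 averaged 1 FPKM or more only through the DMSO libraries, so the filter favoured this count. The summed level of the 13 listed genes in the table was 219 to 244 FPKM in DMSO and 1.52 to 2.31 FPKM in lenvatinib. Mcpt1 (140 to 162 FPKM) and Mcpt2 (53.4 to 56.2 FPKM) made most of the DMSO sum. Fcer1a and Ms4a2, for chains of the IgE receptor, were listed at 0 in all 3 lenvatinib libraries. Cpa3, the mast cell carboxypeptidase, measured 3.86, 4.75 and 3.73 FPKM in DMSO and 0.0353, 0.0864 and 0.0349 FPKM in lenvatinib. Hdc, for histidine decarboxylase, overlapped between the groups, at 0.204 to 0.428 FPKM in DMSO and 0.176 to 0.789 FPKM in lenvatinib. In the same lenvatinib libraries Kit measured 6.01 to 6.63 FPKM. Gata2, a transcription factor of mast cells, was at 0.896 to 1.08 FPKM in DMSO and 0.370 to 0.631 FPKM in lenvatinib, below the filter. The part of mast cells in the Kit difference was not tested.

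The 12 Cajal cell genes listed beyond the members gave no call among the 9 tested, with a median log2 difference of −0.18 and 3 genes apart in the lower direction, against 17.5% of all genes. They were Thbs4, a thrombospondin of these cells, the inositol trisphosphate receptor Itpr1 and the chloride importer Slc12a2, and crypt epithelium also expresses the last. Thbs4 measured 1.58, 1.89 and 1.98 FPKM in DMSO and 1.48, 0.648 and 1.02 FPKM in lenvatinib (limma adjusted p = 0.173). The summed level was 64.3 to 64.7 FPKM in DMSO and 62.7, 42.7 and 42.7 FPKM in lenvatinib 1 to 3, of which Slc12a2 alone made 19.0 to 36.3 FPKM. Without lenvatinib 1, 4 of these 9 genes passed and the median was −0.31. In that fit 28.2% of all genes passed as lower and 9.85% as higher.

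Of 9 tested genes of crypt base secretory and goblet cells 1 fell, where 0.934% of all genes did. It was Agr2, which helps mucins to fold (limma adjusted p = 0.0147). In all, 8 were apart in the lower direction, against 17.5% of all genes. The median was −0.84 and, without DMSO 1, −0.47. Either without DMSO 1 or without lenvatinib 1, 2 genes passed. Of all genes 2.29% passed without DMSO 1, and 28.2% as lower and 9.85% as higher without lenvatinib 1. Reg4, which marks KIT-positive crypt base cells in mouse colon, was among the 9 and did not pass (adjusted p = 0.195). DMSO 1 stood far above the rest, mainly through Spink4 and Clca1: the summed level was 10923 FPKM in DMSO 1, 4844 and 4982 FPKM in DMSO 2 and 3, and 3000 to 3980 FPKM in lenvatinib. Kit measured 8.04 FPKM in DMSO 1, between the other 2 DMSO libraries. Innate lymphoid cells, some of which carry KIT, gave no call among 3 tested genes (1 without lenvatinib 1), and their summed level overlapped between groups (10.8 to 13.1 and 10.7 to 13.0 FPKM). The parts of these cells in the Kit and Kitl differences were not tested.

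**Figure D4:**
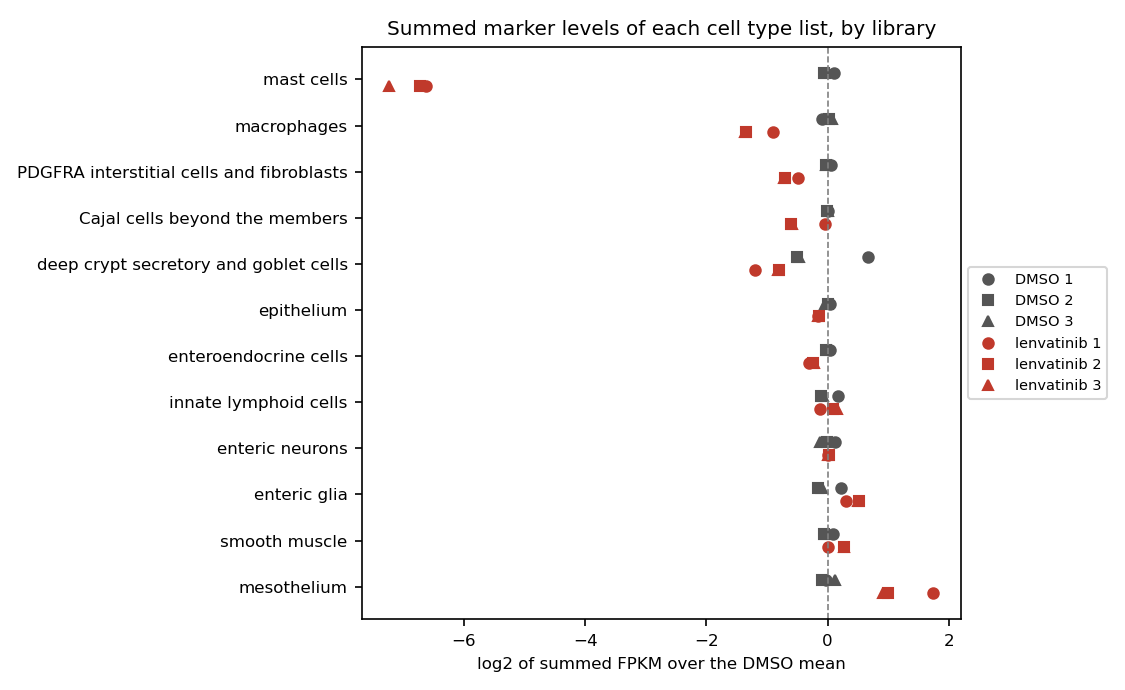
Summed FPKM of each marker list in each library, as log2 of its ratio to the DMSO mean (horizontal axis), with grey symbols for DMSO and red for lenvatinib. The mast cell list is far lower in the 3 lenvatinib libraries, macrophage and fibroblast lists are lower, and neuron and innate lymphoid lists overlap between groups.

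Smooth muscle is a source of both stem cell factor and GDNF. None of its 12 tested genes passed (1 without DMSO 1, 3 without lenvatinib 1), 10 had positive differences, and the median was 0.12 (0.18 without DMSO 1). The summed level was 1763 to 1943 FPKM in DMSO and 1845 to 2196 FPKM in lenvatinib. DMSO 1, the library with the highest Ano1 and Gdnf, was the highest of the 3 DMSO libraries for muscle at 1943 FPKM but below lenvatinib 2 and 3. Epithelial genes gave no call among 8 (2 without lenvatinib 1), with a median of −0.13. Of these, 6 were apart in the lower direction, against 17.5% of all genes. Fibroblast and interstitial genes fell in 5 of 9 cases, all genes of the matrix (Col1a1, Col1a2, Col3a1, Lum and Dpt). Pdgfra overlapped between the groups (limma adjusted p = 0.270), as did P2ry1, Dcn and Pi16, and Dcn and Pi16 had positive differences. The summed level was 567 to 603 FPKM in DMSO and 350 to 414 FPKM in lenvatinib. Col3a1 alone made 163 to 171 FPKM of it in DMSO and 84.7 to 87.6 FPKM in lenvatinib. Macrophage genes fell in 8 of 8 cases (6 without DMSO 1). Over all genes tested 0.934% passed as lower, and 2.29% passed in either direction without DMSO 1. Without lenvatinib 1, 28.2% of all genes passed as lower and 9.85% as higher. Kitl and Gfra2 were lower in the same lenvatinib libraries, and the parts of muscle, epithelium, fibroblasts and macrophages in their differences were not tested.

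The enteric nervous system, where Ret and the co-receptors act, showed no call. Of 17 neuron genes 10 were tested and none passed (1 without lenvatinib 1), with a median of 0.12. Of these, 5 were apart in the higher direction, as were 1178 of all 11774 genes. Prph, a neuronal intermediate filament, measured 3.49, 3.98 and 3.88 FPKM in DMSO and 5.76, 5.34 and 4.57 FPKM in lenvatinib (limma adjusted p = 0.110). The summed neuron level overlapped (57.5 to 68.0 and 62.8 to 63.3 FPKM). Vip alone made 17.4 to 27.9 FPKM of it in DMSO and 16.3 to 17.7 FPKM in lenvatinib. Its log2 difference was −0.32, and 8 of the 10 tested neuron genes had positive differences and 2 negative ones. Of 10 glial genes only Erbb3 and Ednrb were tested and neither passed (1 did without lenvatinib 1), and Erbb3, which epithelium also expresses, made most of the glial sum. Without lenvatinib 1, 28.2% of all genes passed as lower and 9.85% as higher. Gfap and S100b, glial markers below the filter, had separate groups with the higher values in lenvatinib, as Gfra1 had. Gfap measured 0.355, 0.578 and 0.460 FPKM in DMSO and 0.827, 0.956 and 0.870 FPKM in lenvatinib. The part of glia in the Gfra1 difference was not tested.

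Of the rest of the GDNF family, Artn, Pspn and Gfral were low in this tissue. Artn, for artemin, measured 0.168 to 0.399 FPKM in DMSO and 0.308 to 0.445 FPKM in lenvatinib, and Pspn, for persephin, at most 0.132 FPKM in any library. Gfra4, the persephin co-receptor, measured 1.68, 1.07 and 1.27 FPKM in DMSO and 0.840, 1.01 and 0.723 FPKM in lenvatinib (limma adjusted p = 0.203). Its groups did not overlap, as for Gfra2, and in the direction opposite to Gfra1. Gfral, the receptor of GDF15, was listed at 0 in all 3 lenvatinib libraries and at 0.0124 FPKM or less in DMSO. Gas1 and Ncam1, listed with this family, differed by −0.06 and 0.07 on the log2 scale and did not pass. Gas1 measured 8.03 to 9.63 FPKM over the 6 libraries.

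Of all genes tested 0.934% fell and 1.10% rose. Downstream of the receptors, 1 of 16 tested RET partners fell and none rose. It was Etv5, an ETS factor induced by RET and other receptor kinases, which measured 3.72, 4.59 and 5.43 FPKM in DMSO and 1.33, 1.46 and 1.62 FPKM in lenvatinib. Its log2 difference was −1.17 (SE 0.126; limma adjusted p = 0.0111), and every lenvatinib library was far below every DMSO library. Spry2, a feedback inhibitor, measured 6.83, 5.64 and 6.11 FPKM in DMSO and 4.70, 5.03 and 5.69 FPKM in lenvatinib and had overlapping groups (adjusted p = 0.231). The median over the RET partners was −0.03. Without lenvatinib 1 it was −0.08, and 4 of the 16 passed. Among 17 tested KIT partners none passed, 7 were apart in the lower direction, against 17.5% of all genes, and the median was −0.09. Without lenvatinib 1 the median was −0.16 and 8 passed. In that fit 28.2% of all genes passed as lower and 9.85% as higher, with a median of −0.10. The adaptor Sh2b3, which restrains KIT, measured 6.19, 5.56 and 6.07 FPKM in DMSO and 4.84, 4.48 and 4.50 FPKM in lenvatinib (adjusted p = 0.0952). Lyn, Ptpn6 and Inpp5d, a kinase and phosphatases of blood cells, were lower with lenvatinib 1 nearest to DMSO (adjusted p = 0.127 to 0.177).

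Dynll1 and Ehd4 were among the 3 tested genes whose log2 levels followed Kit most closely over the 6 libraries (Pearson r = 0.995 and 0.993). For Ano1 the 3 genes were Kdm3b, Tnrc6a and Pik3c3 (r = 0.990, 0.989 and 0.987), and for Ret they were Ubald1, Tmem199 and Vegfc (r = 0.919, 0.911 and 0.909). These are the top of 11774 genes over 6 libraries, of which libraries 2 and 3 of each group nearly repeat each other, and they are given as a description. None of the other members was among the 3 genes most like Kit, Ano1 or Ret.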

How the data were processed

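RNA sequencing of mouse colon gave 6 libraries, 3 labelled DMSO and 3 labelled lenvatinib. RNA was extracted with TRIzol and libraries made with a VAHTS kit, per the labels' protocols. The authors deposited FPKM values for 25339 genes. HTSeq and the build GRCm39 are named in the submitters' processing notes, while no aligner, annotation or strand setting is given in the sources used here. Reads were recovered from the FPKM steps of each gene (99.99% of 23951 genes above 0 came out whole within 0.01 reads).

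The test was limma 3.58.1 (R 4.3.3) on log2(FPKM + 1) for the 11774 genes averaging 1 FPKM or more, using a trended, robust prior. It was two-sided, with Benjamini-Hochberg adjustment over all genes tested and 0.05 as the threshold. The pseudocount makes differences of low genes too small. The fit was tested on simulated data. Single values were also compared by exact permutation over the 20 regroupings. Members and lists were chosen with earlier results of these data known. The rule for named genes covered all members, up to 4 genes of each list by unadjusted p, and the 3 genes most like Kit, Ano1 and Ret, of which 1 is not reported here. Fcer1a, Ms4a2, Hdc, Gata2, Reg4, Spink4, Gfap, S100b, Artn, Pspn, Gfral, Ddx3y and Xist fall outside it and were chosen after their values were seen. Promoter sequences are RefSeq's (GRCm38.p6), and exon overlaps come from GENCODE M21.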

Additional observations from a re-analysis of the deposited data

How the results depend on the processing

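No member passed under 15 of the 16 alternatives. The exception was the fit without lenvatinib 1. Leaving out 1 library at a time gave 0 to 3 members passing as lower and 0 to 1 as higher, and 23 to 3319 of all genes as lower and 22 to 1160 as higher, each maximum without lenvatinib 1. Over all genes, 110 passed as lower and 129 as higher. With no filter on low values these were 66 and 74, with the replicate block 11 and 18, with libraries 2 and 3 averaged 2 and 2, and with those libraries as a random pair 19 and 27. The cause was not tested. Kit ranged from −0.34 to −0.22 on the log2 scale over its 16 alternatives, Kitl from −0.60 to −0.41 and Gfra1 from 0.30 to 0.63, and no direction changed for these 3. Ret was at 0.0030 with quantile normalization. Same-numbered libraries deviated in opposite directions (r = −0.196, −0.159 and −0.151). So did DMSO 2 and lenvatinib 3 (r = −0.186) and DMSO 3 and lenvatinib 2 (r = −0.143). Deviations within a group sum to 0 and libraries 2 and 3 are nearly alike, so this cannot decide whether the numbers pair the libraries. The replicate block gave no member a call. Reads limit Gfra3, Gdnf and Nrtn most.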
